A study of Mus musculus with 24 samples.

Results

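The HoxD cluster is a run of 9 Hox genes on mouse chromosome 2, all read from the plus strand. Its members were taken by name from the GENCODE M1 annotation of genome build mm9, and they made up 9 of the 22359 protein-coding genes with a coding transcript. In chromosome order these were Hoxd13, Hoxd12, Hoxd11, Hoxd10, Hoxd9, Hoxd8, Hoxd3, Hoxd4 and Hoxd1, and Hoxd4 lay within the annotated span of Hoxd3. The cluster ran from the first base of Hoxd13 (74506367) to the last base of Hoxd1 (74603200), a length of 96.8 kb. A further protein-coding gene, Gm14396, is annotated between Hoxd10 and Hoxd9 and is no member. No measured value entered the choice of the genes.

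The series held ChIP-seq of 3 types of fibroblast cultures from mice. Embryonic fibroblasts (MEF) came from embryos of days 10 to 13 and carried the label C57BL/6. MMTV-CAF were cancer-associated fibroblasts that grew out of breast tumours in MMTV-PyMT mice (FVB/NJ), in which a viral promoter drives a tumour antigen in mammary epithelium. Wound-healing fibroblasts came from dorsal skin wounds of C57BL/6 mice at day 10. All cultures, controls included, carried the papillomavirus oncogenes E6 and E7 for immortalisation. Each type was studied without Prrx1 deletion (WT, with the guide SgNS named as control) and after guide-directed CRISPR deletion of Prrx1 (SG). MEF were also studied as a line labelled KI, a term the labels do not spell out. The study describes a mutant allele with lacZ in the homeodomain of Prrx1, the protocol names 129S-Prrx1tm1Jfm/Mmmh mice, and the strain label of these samples reads C57BL/6. PRRX1 is a homeodomain transcription factor of limb and craniofacial mesenchyme and of fibroblasts. Of the 24 samples, 17 had a list of called regions or summits: 7 for H3K4me3, 7 for H3K27ac and 3 for PRRX1, the last in WT cells of each type. The other 7 were input controls with no list.

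Hox genes encode homeodomain transcription factors that specify position along the body axis and the limb. In the HoxD cluster gene order follows the order of use: Hoxd1 and Hoxd3 lie at the anterior, early end, and Hoxd10 to Hoxd13 lie at the posterior end, which is used in the trunk's tail end, the genital bud and the distal limb. Regulatory sequences lie in gene deserts on both sides of the cluster, and a transcribed cluster usually passes sharply from active to Polycomb-silenced chromatin. H3K4me3 is trimethylation of lysine 4 of histone H3 at active or poised gene starts, and H3K27ac is acetylation of lysine 27 at active starts and enhancers.

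Each group held 1 list, so values are given side by side with no test, and the spread between replicates is unknown. The exception is a comparison of WT with SG paired by fibroblast type, added after seeing the data and given near the end. The lists held from 13125 to 29166 H3K4me3 regions, from 29325 to 61603 H3K27ac summits and from 3048 to 8000 PRRX1 summits, and the read depth of the libraries is unknown. The MEF KI lists stood apart: both were the shortest of their mark, with median −log10 p values of 9.93 for H3K4me3 and 11.9 for H3K27ac, against ranges of 7.51 to 28.6 and 15.2 to 21.2 in the other 6 cultures. The part of list strength in the results below was not tested. Genotype, line and culture cannot be told apart in MEF KI, nor can fibroblast type and mouse strain in MMTV-CAF. H3K4me3 lay over a start of 6 to 8 of 8 fibroblast markers in each culture. MEF KI lacked it at Thy1 and Twist1, both MMTV-CAF cultures at Thy1, and the wound-healing cultures at Col3a1 with either Twist1 or Thy1. It lay over 0 or 1 of 4 epithelial markers (Cdh1), 0 or 1 of 3 endothelial markers (Kdr) and 0 of 3 leukocyte markers. Prrx1 itself had H3K4me3 at a start in all 7 lists, which does not check a deletion.

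The gene starts differed in sequence. The 250 bases before the first coding start are shown for 5 members with different patterns of marking, chosen after the values were seen (mm9, plus strand, 5′ to 3′, CG dinucleotides in capitals). MEF KI was the 1 list with an H3K27ac summit within 1 kb of the Hoxd13 start and the 1 list with an H3K4me3 region over the Hoxd10 start. By the same rules Hoxd9 had both marks in the other 6 cultures, Hoxd8 had H3K4me3 in all 7 and H3K27ac in those 6, and Hoxd4 had neither mark in any.
Hoxd13, chr2:74506117-74506366: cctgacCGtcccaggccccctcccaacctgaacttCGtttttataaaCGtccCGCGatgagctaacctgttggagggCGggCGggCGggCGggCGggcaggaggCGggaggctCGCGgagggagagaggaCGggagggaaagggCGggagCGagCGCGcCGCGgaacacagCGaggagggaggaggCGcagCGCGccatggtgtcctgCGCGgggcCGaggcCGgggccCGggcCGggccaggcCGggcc
Hoxd10, chr2:74528897-74529146: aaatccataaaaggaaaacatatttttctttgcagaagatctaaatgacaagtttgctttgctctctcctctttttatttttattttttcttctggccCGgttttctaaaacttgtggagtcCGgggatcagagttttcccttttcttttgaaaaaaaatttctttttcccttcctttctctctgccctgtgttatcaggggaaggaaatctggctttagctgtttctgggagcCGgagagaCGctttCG
Hoxd9, chr2:74535487-74535736: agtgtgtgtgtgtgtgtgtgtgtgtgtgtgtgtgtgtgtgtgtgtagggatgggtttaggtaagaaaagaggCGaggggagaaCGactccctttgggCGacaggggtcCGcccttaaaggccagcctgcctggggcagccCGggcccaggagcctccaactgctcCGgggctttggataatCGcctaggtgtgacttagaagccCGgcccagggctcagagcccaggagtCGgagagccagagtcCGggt
Hoxd8, chr2:74542422-74542671: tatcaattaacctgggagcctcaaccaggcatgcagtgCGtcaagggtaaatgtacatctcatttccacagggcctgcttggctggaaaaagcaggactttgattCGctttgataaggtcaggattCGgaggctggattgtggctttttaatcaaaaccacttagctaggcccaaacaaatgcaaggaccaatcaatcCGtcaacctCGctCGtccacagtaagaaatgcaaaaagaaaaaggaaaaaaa
Hoxd4, chr2:74559785-74560034: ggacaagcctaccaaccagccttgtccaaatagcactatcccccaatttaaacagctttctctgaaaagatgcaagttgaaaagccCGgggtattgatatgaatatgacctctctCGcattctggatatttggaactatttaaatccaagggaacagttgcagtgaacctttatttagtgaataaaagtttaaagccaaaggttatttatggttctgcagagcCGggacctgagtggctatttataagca

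These windows held 31 CG in Hoxd13, 5 in Hoxd10, 10 in Hoxd9, 6 in Hoxd8 and 3 in Hoxd4, beside a median of 9 over the 22354 promoters of this length. Of the remaining members, Hoxd1 had 24, Hoxd11 had 14, Hoxd3 had 12 and Hoxd12 had 9. The count did not separate marked from unmarked starts. Hoxd8, with 6, had H3K4me3 over this first coding start in 6 lists, and Hoxd13, with 31, in 2. None of the 9 windows held TAATTA, the palindromic core of homeodomain sites, which 4.55% of all promoters of this length held.

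H3K4me3 covered the most of the cluster in MEF KI, at 21.4 kb. Its place depended on the cutoff: without regions under a −log10 p of 10, MEF KI had 5.74 kb, the other MEF and the wound-healing cultures 7.4 to 10.5 kb, MMTV-CAF WT 7.24 kb and MMTV-CAF SG 5.58 kb. With each list kept to the length of the shortest, strongest regions first, the others had 3.27 to 13.7 kb. The MEF KI list is itself the shortest and was not cut, so its 21.4 kb had to stay first. Wound-healing fibroblasts followed with 14.8 kb in SG and 14.4 kb in WT, then MEF with 11.3 kb in WT and 8.91 kb in SG. MMTV-CAF had the least, 8.22 kb in SG and 7.90 kb in WT, an order that turned round with lists of equal length, at 3.27 and 7.24 kb. These values were 22.1%, 15.3%, 14.8%, 11.7%, 9.20%, 8.49% and 8.16% of the cluster, where the same lists covered 0.779% to 1.93% of all chromosomes. With 1 list each, the order of neighbours such as the wound-healing pair has no spread to be read against.

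The bases covered lay in different places. A point midway between the end of Hoxd10 and the start of Hoxd9, chosen after the values were seen, divides the cluster into a posterior part of 28.1 kb (Hoxd13 to Hoxd10) and an anterior part of 68.8 kb (Hoxd9 to Hoxd1). In MEF KI 18.1 of the 21.4 kb lay in the posterior part, a share of 84.4%. In the other 6 cultures that part held 0.260 to 3.50 kb, a share of 3.29% to 27.5%. MEF KI had 3.35 kb in the anterior part, and the other cultures had 5.96 to 12.2 kb there, so neither range reached the value of MEF KI.

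**Figure D1:**
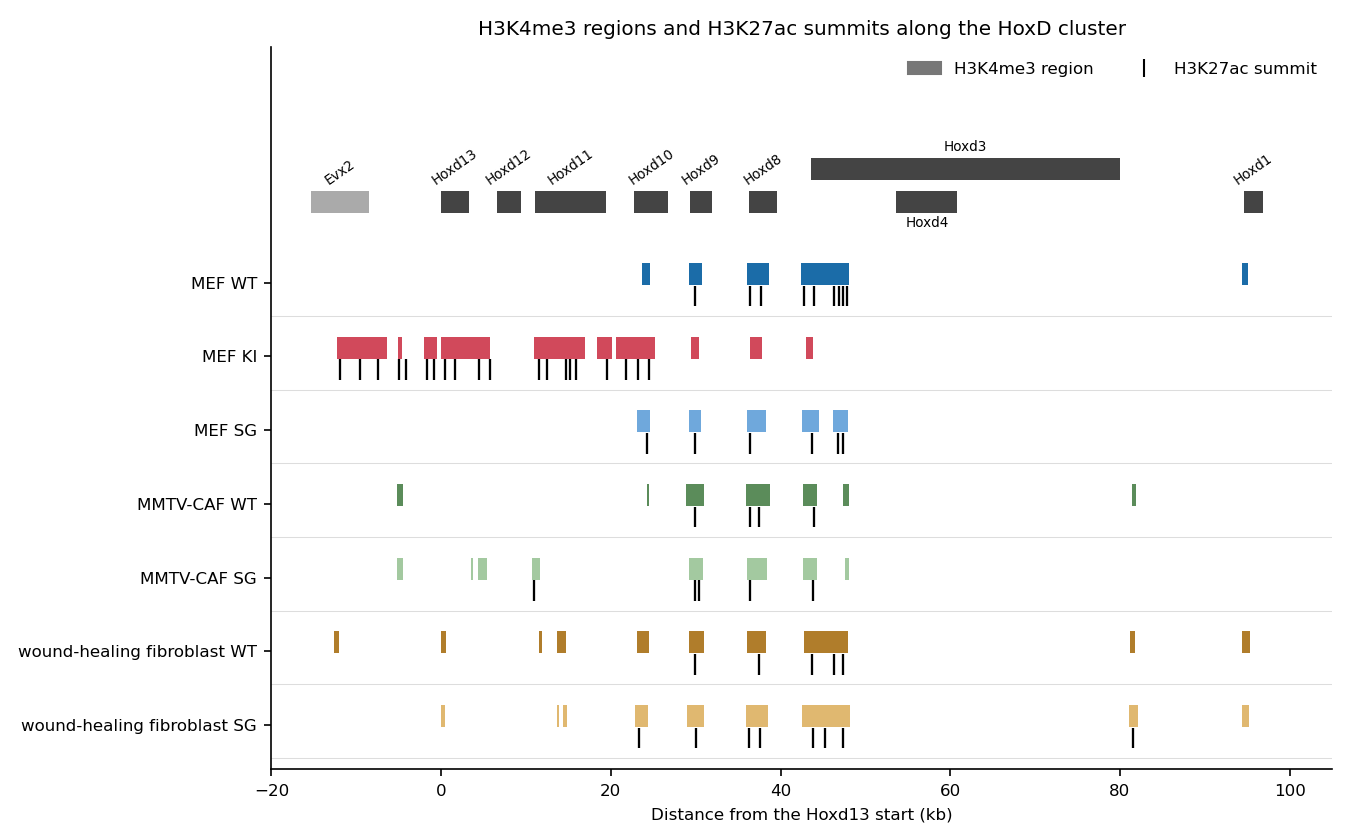
H3K4me3 regions (coloured bars) and H3K27ac summits (black ticks) along the HoxD cluster in the 7 cultures, by distance from the Hoxd13 start in kb, with the genes above. The marks of MEF KI lie from Evx2 to Hoxd10 with small regions beyond, and those of the other 6 cultures centre on Hoxd9, Hoxd8 and the start of Hoxd3.

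A region lay over a coding start of 4 of 9 members in MEF WT, where the share over all protein-coding genes was 52.5%. The number was 5 of 9 in MEF KI (39.6% of all genes), 3 of 9 for MEF SG (50.7%), 3 of 9 in MMTV-CAF WT (51.9%), 3 of 9 in MMTV-CAF SG (52.4%), 6 of 9 in wound-healing WT (54%) and 5 of 9 in wound-healing SG (54.7%). These counts sat near the shares of all genes, and the cultures differed in which members were marked. Without regions under a −log10 p of 10 the number was 1 of 9 in MEF KI (24.6% of all genes by the same rule) and 3 of 9 in wound-healing SG (47.1%).

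Hoxd13, the most posterior member, needed for digits and the genital bud, was covered over its whole length in MEF KI, by a region of 5.81 kb (chr2:74506293-74512106) with a fold of 4.27 and a −log10 p of 10.6. Regions over its start were short and weak in wound-healing fibroblasts: 0.658 kb with −log10 p of 4.57 in WT, and in SG 0.423 kb at 6.01, which began 6 bases after the start. Both MEF WT and MEF SG and both MMTV-CAF cultures had no H3K4me3 base in the gene. In MMTV-CAF SG regions of 0.306 and 0.990 kb lay between Hoxd13 and Hoxd12.

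Hoxd12 had no H3K4me3 region over its start in any of the 7 lists. The region over Hoxd13 in MEF KI ended 880 bases before it, and 6.05% of the bases within 1 kb of the Hoxd12 start were covered there, against 0% in the other cultures. Hoxd11, which acts with Hoxd10 in the forearm and digits, was covered over 7.02 of its 8.35 kb in MEF KI, by regions with −log10 p up to 7.30. In wound-healing fibroblasts 1.44 kb were covered in WT and 0.670 kb in SG, with regions over its start at −log10 p of 5.40 and 4.54. It had 0.574 kb in MMTV-CAF SG and none in the other 3 cultures.

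Hoxd10 was the posterior member marked in most cultures, though mostly downstream of its start. MEF KI alone had a region over the start, of 4.56 kb with −log10 p of 6.30. Inside the gene there were 0.873 kb in MEF WT, 1.51 kb in MEF SG, 0.260 kb in MMTV-CAF WT, 1.43 kb in wound-healing WT and 1.54 kb in wound-healing SG. MMTV-CAF SG had none. The −log10 p of these 5 regions ran from 3.72 in MEF WT to 8.16 in wound-healing SG.

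Hoxd9 and Hoxd8, central members of the cluster, had H3K4me3 in all 7 lists. At Hoxd9 the −log10 p was 31.3 in MEF WT, 25.9 in MEF SG, 35.7 in MMTV-CAF WT, 21.8 in MMTV-CAF SG, 28.0 in wound-healing WT and 23.7 in wound-healing SG. In MEF KI it was 5.47, and the region of 0.993 kb began 66 bases after the start and so was not counted at it. The Hoxd9 region was the highest or second highest by −log10 p of the regions in the cluster in each of the 6 other lists.

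At Hoxd8 the values in the same order were 19.5, 20.1, 14.2, 10.3, 12.7 and 20.3, and 6.45 in MEF KI. At the start of Hoxd3 they were 19.2, 30.6, 21.7, 17.9, 12.8 and 13.7, and 5.22 in MEF KI. At all 3 genes the value of MEF KI lay below those of the other 6 cultures, which do not overlap it. This was not particular to these members. It held at the neighbours Lnp (12.3 against 24.2 or more), Mtx2 (11.2 against 26.7 or more) and Atp5g3 (11.1 against 17.5 or more). Hoxd3 has 6 annotated coding starts, and only the first was marked in any list. The region there also covered an inner start of the antisense gene 1700109F18Rik, at 74550111, in all 7 lists, so the 2 genes share its values at that place.

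All 7 lists covered 3 common blocks: 0.993 kb in the first part of Hoxd9 (chr2:74535803-74536795), 1.47 kb in Hoxd8 (chr2:74542724-74544195) and 0.885 kb at the Hoxd3 start (chr2:74549322-74550206). The first 2 hold coding exon. All 3 were the regions of MEF KI themselves, each lying within the wider regions of the other lists. Together the blocks made up 3.46% of the cluster, and 68.0% of the cluster was covered in no list.

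Hoxd4 had no H3K4me3 base in any list, over either of its 2 coding starts or its 7.18 kb. It lies in a stretch of 32.9 kb (chr2:74554512-74587409) without a region in any list, which also holds the microRNA gene Mir10b and the other 5 starts of Hoxd3. Hoxd1, the most anterior member, was marked at its start in 3 lists: 0.774 kb with −log10 p of 10.1 in MEF WT, 0.942 kb with 14.8 in wound-healing WT and 0.809 kb with 9.83 in wound-healing SG. MEF KI, MEF SG and both MMTV-CAF cultures had no region there. The same 3 regions covered the start of the antisense gene 6720416L17Rik, 84 bases before Hoxd1 on the minus strand.

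**Figure D2:**
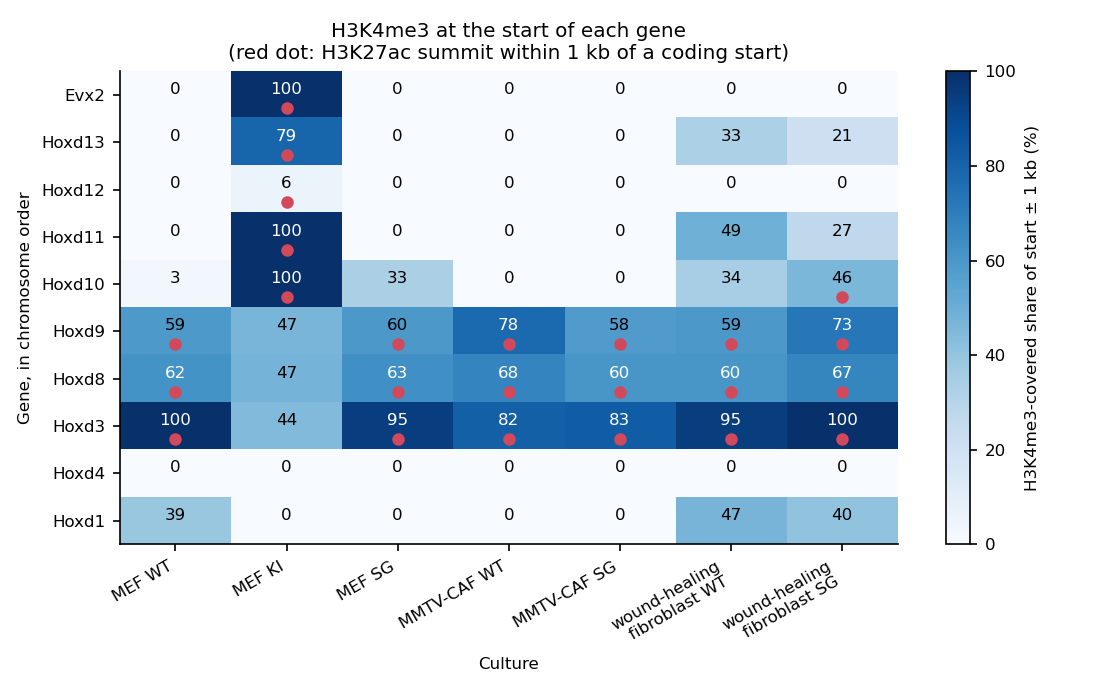
Share of the bases within 1 kb of the first coding start covered by H3K4me3 (percent, shade and number) for Evx2 and the 9 HoxD genes in the 7 cultures. A red dot marks an H3K27ac summit within 1 kb of a coding start; dots at Hoxd13 and Hoxd12 occur in MEF KI alone and dots at Hoxd9, Hoxd8 and Hoxd3 in the other 6 cultures.

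H3K27ac summits inside the cluster numbered 13 in MEF KI, 9 in MEF WT, 6 in MEF SG, 4 in MMTV-CAF WT, 5 in MMTV-CAF SG, 5 in wound-healing WT and 8 in wound-healing SG. The mean density of the same lists over all chromosomes gives 1.07 to 2.25 summits for a stretch of this length, so every list as deposited held more than its own mean. With each list kept to the length of the shortest, MMTV-CAF SG held 0 and MEF WT 5. In MEF KI all 13 summits lay in the posterior part, with −log10 p of 5.77 to 24.3. In the other 6 cultures 0 or 1 did, and 4 to 9 lay in the anterior part. Inside the cluster the lists of MEF WT and MEF KI had no summits within 500 bp of each other, and 6 of 9 summits of MEF WT had such a partner in MEF SG. The share of all summits with such a partner is not given here, so these counts have no background.

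A summit within 1 kb of a coding start was found for 3 of 9 members in MEF WT (48.4% of all protein-coding genes), MEF SG (50.2%), MMTV-CAF WT (48.5%), MMTV-CAF SG (50.7%) and wound-healing WT (47.3%). In each of these 5 lists they were Hoxd9, Hoxd8 and Hoxd3. Wound-healing SG had 4 of 9 (49.4% of all genes), the same genes and Hoxd10. MEF KI also had 4 of 9 (37.8% of all genes), and these were Hoxd13, Hoxd12, Hoxd11 and Hoxd10. No member had a summit near its start both in MEF KI and in MEF WT. Of all protein-coding genes, 48.4% had one in MEF WT, and 11.3% had one in MEF WT and not in MEF KI. With each list kept to the length of the shortest, strongest summits first, MMTV-CAF SG had 0 of 9 (47.3% of all genes in that shortened list).

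At Hoxd9 the highest summit near the start had a −log10 p of 22.2 in MEF WT, 49.2 in MEF SG, 23.4 in MMTV-CAF WT, 12.6 in MMTV-CAF SG, 22.3 in wound-healing WT and 33.5 in wound-healing SG. All 6 fell within 87 bases of each other, from 74536268 to 74536355, in the coding exon. At the Hoxd3 start the values were 45.0, 63.6, 20.4, 14.3, 31.0 and 39.5 in the same order. These Hoxd3 values were higher in SG than in WT in both MEF and wound-healing pairs, and in MMTV-CAF lower. By rank in its own list the Hoxd3 summit was not higher in SG in any pair. It stood above 83.7% of the summits in MEF WT and 82.4% in SG. The shares were 82.4% and 80.5% in wound-healing WT and SG, and 60.1% and 40.3% in MMTV-CAF. The ranks at Hoxd9 and Hoxd8 were higher in SG for MEF and the wound-healing pair, and lower for MMTV-CAF. From WT to SG the Hoxd9 summit went from 57.8% to 74.5% in MEF and from 69.5% to 75.5% in the wound-healing pair. For MMTV-CAF it went from 64.7% to 33.5%. The highest Hoxd8 summit went from 73.8% to 88.5%, from 55.7% to 71.0% and from 64.7% to 40.3% in the same order. A further group of summits lay 3709 to 3791 bases into Hoxd3, within its intron near the start of 1700109F18Rik, at −log10 p of 41.3 in MEF WT, 52.9 in MEF SG, 11.7 in wound-healing WT and 36.8 in wound-healing SG. MMTV-CAF had no summit there.

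In MEF KI the highest summits of the posterior part were at Hoxd10, 24.3 at 940 bases before its start and 22.4 at 434 bases after it. The next was 20.8 at 1216 bases before Hoxd11. At Hoxd13 the nearest summits lay 815 bases before the start, outside the cluster, with 25.01, and 452 bases after it, with 19.2. By rank in its own list the summit of 25.01 stood above 92.8% of the KI summits. In wound-healing SG 1 summit lay 502 bases after the start of Hoxd10, at 14.2, in MEF SG 1 summit lay 1448 bases after it, at 7.53, and in MMTV-CAF SG 1 summit lay between Hoxd12 and Hoxd11, at 9.34. No WT list had a posterior summit.

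The edges of marking differed accordingly. With 20 kb added on each side, H3K27ac ran from 29.9 to 47.9 kb after the Hoxd13 start in MEF WT, from 24.2 to 47.4 kb in MEF SG, from 29.96 to 43.9 kb in MMTV-CAF WT and from 10.9 to 43.8 kb in MMTV-CAF SG. It ran from 29.9 to 47.4 kb in wound-healing WT and from 23.3 to 81.6 kb in wound-healing SG, where a single summit of −log10 p 8.87 set the far edge. The first summit thus fell in Hoxd9 in all 3 WT cultures and in each SG culture fell closer to Hoxd13. With summits under a −log10 p of 10 left out, this held for wound-healing SG alone, and in MEF SG and MMTV-CAF SG the first summit was again in Hoxd9, at 29.9 kb. In MEF KI the marking began at −11.9 kb, before Hoxd13 in Evx2, and stopped at 24.5 kb, in Hoxd10. The 72.4 kb from there to the end of Hoxd1 held no summit.

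H3K4me3 had wider edges. Its first base lay 23.7 kb after the Hoxd13 start in MEF WT and 23.1 kb after it in MEF SG, both in Hoxd10. Counted as negative before that start, it lay at −5.16 kb in MMTV-CAF WT and at −5.20 kb in SG, in a region between Evx2 and Hoxd13. Wound-healing WT had it at −12.7 kb, in Evx2, and SG at 0.006 kb. MEF KI had it at −12.2 kb. The last base was in Hoxd1 in MEF WT and both wound-healing cultures, at 95.1, 95.3 and 95.2 kb, in the Hoxd3 intron at 48.0 kb in MEF SG and MMTV-CAF SG, in 6720416L17Rik at 81.9 kb in MMTV-CAF WT, and at the Hoxd3 start at 43.8 kb in MEF KI. Many of these outer regions were weak. With regions under a −log10 p of 10 left out, a cutoff chosen after the values were seen, the first base moved to between 28.8 and 29.2 kb, at Hoxd9, in MEF WT, MEF SG, MMTV-CAF WT and both wound-healing cultures. It stayed between Evx2 and Hoxd13 in MMTV-CAF SG, and in MEF KI it moved to Hoxd13. The last base then lay at 48.1 kb in MMTV-CAF WT and wound-healing SG, so that the latter no longer reached Hoxd1, and at 5.74 kb in MEF KI.

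Evx2, the homeobox gene next to Hoxd13, was marked at its start in MEF KI alone. In MEF KI a region of 5895 bases covered its start, and 7 H3K27ac summits lay in the stretch from Evx2 up to Hoxd13. None of the other 6 lists had a summit in this stretch. In MMTV-CAF SG the region between Evx2 and Hoxd13 had a −log10 p of 20.1, and at the same place WT had 4.48.

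The first comparison asked what differed between MEF WT and MEF KI. H3K4me3 lay over a start of Hoxd9 and Hoxd1 in WT and not in KI, 2 of 9 members, where 13.3% of all genes had it so. The KI region at Hoxd9 began 66 bases after the start, and with regions within 1 kb of a start counted, the members with H3K4me3 numbered 5 of 9 in WT (55.1% of all genes by that rule) and 7 of 9 in KI (50%). It was present in KI and not in WT at Hoxd13, Hoxd11 and Hoxd10, 3 of 9 members, against 0.344% of all genes. For H3K27ac 3 of 9 members, Hoxd9, Hoxd8 and Hoxd3, had a summit in WT and not in KI (11.3% of all genes), and 4 of 9, Hoxd13, Hoxd12, Hoxd11 and Hoxd10, in KI and not in WT (0.716%).

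Over the cluster the log2 ratio of KI to WT was 0.92 for covered bases and 0.53 for summits, while the whole lists had ratios of −0.29 and −0.62. In the posterior part covered bases went from 0.873 to 18.1 kb, a log2 ratio of 4.37, and in the anterior part from 10.5 to 3.35 kb, a log2 ratio of −1.64. The bases in both lists made up 37.2% of those of WT and 19.7% of those of KI. The sum over the cluster depended on the cutoff. Without regions under a −log10 p of 10, close to the median of the KI list, the log2 ratio of covered bases was −0.87. With both lists kept to equal length it was 1.03, a cut that shortens the WT list alone and so cannot lower the ratio. H3K27ac kept its direction at the cutoff, with 10 summits in KI.

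The second comparison was MEF WT with MEF SG, and it shared the WT lists with the first. Hoxd1 was the 1 member with H3K4me3 over a start in WT and not in SG, where the share of all genes was 2.26%, and no member had it in SG and not in WT (0.443%). For H3K27ac no member changed in either direction, beside 0.953% and 2.7% of all genes. Covered bases were 11.3 and 8.91 kb, a log2 ratio of −0.35, and 72.7% of the WT bases were shared. Summits numbered 9 and 6, a log2 ratio of −0.58. The summits of SG had a median −log10 p of 51.01, against 13.8 in WT, and medians of the whole lists were 21.2 and 18.5.

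In MMTV-CAF no member differed between WT and SG in either mark. The shares of all genes were 1.35% and 1.91% for H3K4me3 in WT alone and SG alone, and 1.34% and 3.49% for H3K27ac. Covered bases were 7.90 and 8.22 kb, a log2 ratio of 0.06 that turned to −0.38 without regions under a −log10 p of 10, with 75.2% of the WT bases shared. The posterior part held 0.260 kb in WT and 2.26 kb in SG with no base in common, all in regions with a −log10 p under 10. Summits numbered 4 and 5. Their median −log10 p was 21.9 in WT and 12.6 in SG, while the whole lists had 16.3 and 17.8.

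In wound-healing fibroblasts Hoxd13 was the 1 member with H3K4me3 over a start in WT and not in SG (1.34% of all genes), by 6 bases, and none had it in SG and not in WT (2.02%). For H3K27ac no member had a summit in WT and not in SG (1.45%), and Hoxd10 had one in SG and not in WT, 1 of 9 members against 3.49% of all genes. Covered bases were 14.4 and 14.8 kb, a log2 ratio of 0.04, and 90.5% of the WT bases were shared, the largest share of the 4 pairs. Summits numbered 5 and 8, a log2 ratio of 0.68, where the whole lists had 0.36.

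**Figure D3:**
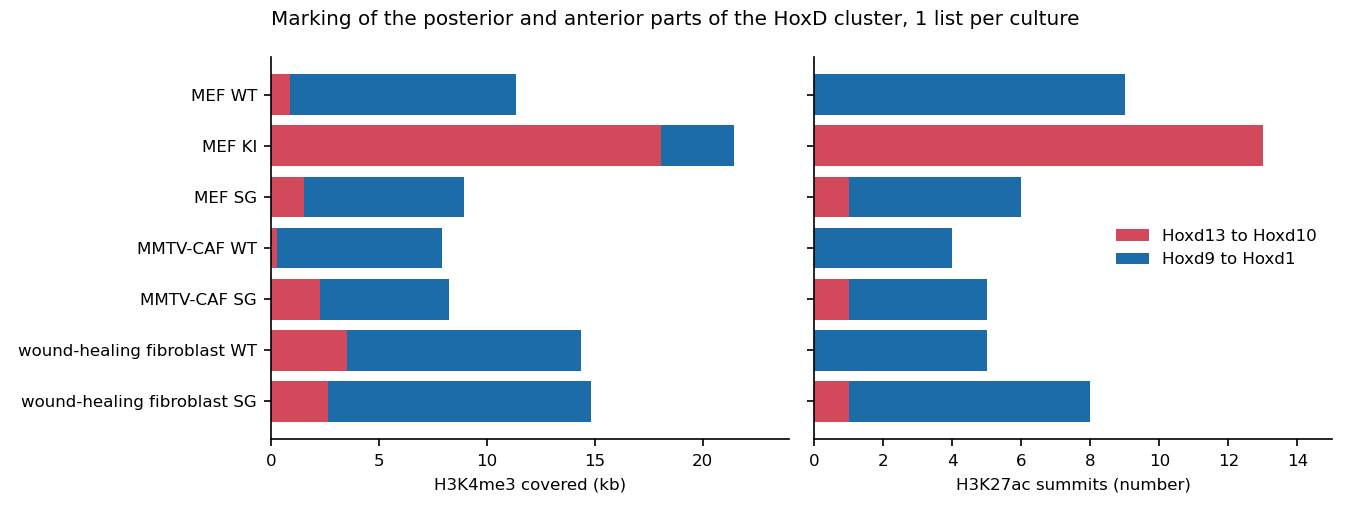
H3K4me3-covered bases (left, kb) and H3K27ac summits (right, number) in the cluster for the 7 cultures, with the part from Hoxd13 to Hoxd10 in red and the part from Hoxd9 to Hoxd1 in blue. Bars are single lists with no error; all 13 summits of MEF KI are in the red part, and no WT list has a summit there.

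H3K27ac summits were joined over the default distance of the super-enhancer tool ROSE and ranked by their summed −log10 p, an approximation of the super-enhancer ranking that the study ran on reads. In MEF KI the cluster reaching from Evx2 to Hoxd10 spanned 36.4 kb with 20 summits and ranked 15 of 13518, within the top 0.111%. In MEF WT the HoxD cluster ranked 778 of 18313 and in MEF SG 693 of 17687. It ranked 824 of 18052 in wound-healing SG and 1603 of 13901 in wound-healing WT. The lowest ranks were those of MMTV-CAF, 5981 of 18506 in WT and 10537 of 19061 in SG. MEF WT, MEF KI, MEF SG and wound-healing SG stood above the inflection point of their rank curve, and the other 3 did not. Joined over 5 kb instead, MEF KI stayed first, at the top 0.262%, and the order of MEF SG (10.9%) and MEF WT (5.98%) turned round. The rank of each of the other cultures was lower too.

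The flanks were compared next, since enhancers of the cluster lie in both deserts. The desert from Atp5g3 to Lnp had no H3K27ac summit in any list. The desert from the end of Mtx2 to Hnrnpa3, 781 kb long, held 20 summits in MEF WT, 20 in MEF SG and 5 in MEF KI. From WT to KI this was a log2 ratio of −2, where the whole lists had −0.62. In every list these counts take in a summit near the Hnrnpa3 start, the highest of the stretch. Of the 20 in MEF WT 14 had a partner within 500 bp in MEF SG and 4 in MEF KI. The whole lists of MEF SG and MEF KI held 43019 and 29325 summits. The share of all summits with a partner is not given here. In MMTV-CAF the desert held 6 in WT and 16 in SG, a log2 ratio of 1.42, where the whole lists had 0.19. It held 13 and 15 in wound-healing WT and SG. The 60.7 kb between Hoxd1 and Mtx2 held none in any list. The starts of Lnp, beyond Evx2, and of Mtx2 on the other side had both marks in all 7 cultures.

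**Figure D4:**
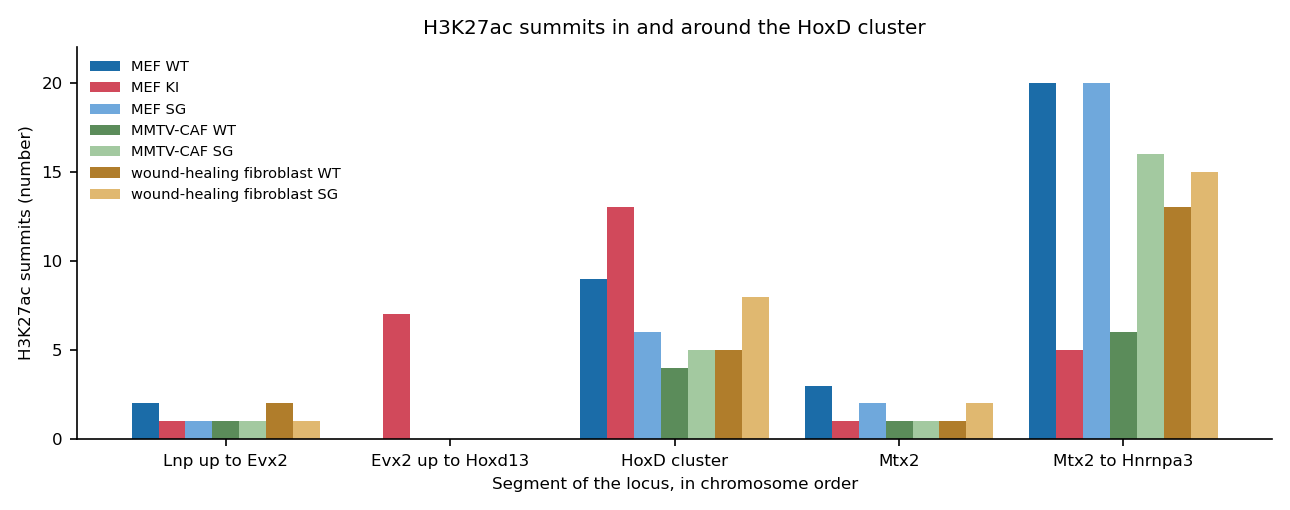
Number of H3K27ac summits in 5 segments of the locus in chromosome order, 1 bar per culture. The segment from Evx2 up to Hoxd13 has 7 summits in MEF KI and 0 in the other 6 cultures, and the segment from Mtx2 to Hnrnpa3 has 5 in MEF KI and 6 to 20 in the others.

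PRRX1 had no summit inside the cluster in any of the 3 WT lists, and 0 of 9 members had one within 1 kb of a start. Of all protein-coding genes, 0.559% had one in the MEF list, 7.3% in that of MMTV-CAF and 5.96% in that of wound-healing fibroblasts. The lists held 3048, 8000 and 5698 summits, and their mean density gives 0.111, 0.292 and 0.208 for a stretch of this length, so an empty cluster is no departure from it. The nearest summit was 31.4 kb before Hoxd13 in MEF, at 74474929 between Lnp and Evx2, with a −log10 p of 6.02. In MMTV-CAF and wound-healing fibroblasts the stretch without a summit around the cluster was 1509 and 1808 kb long, and in MEF 263 kb.

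From Atp5g3 to Hnrnpa3 the MEF list had 4 PRRX1 summits, that of MMTV-CAF 2 and that of wound-healing fibroblasts 7, all between genes. The desert beyond Mtx2 held 3, 1 and 7 of them. At 1 place, singled out after the values were seen, all 3 types had a summit: 75443948 in MEF with a −log10 p of 6.94, 75443971 in MMTV-CAF with 4.83, and 75444104 in wound-healing fibroblasts with 11.5. The PRRX1 lists reach down to −log10 p of 3.002 to 3.047, where the H3K27ac lists stop at 5.003 to 5.063, and the MMTV-CAF summit would fall below the latter limit. The wound-healing summit stood above 90.3% of its list and the others above 32.5% and 16.2% of theirs. This place lay 53.3 kb before Hnrnpa3 and 843 kb after the Hoxd1 start, and no H3K27ac list had a summit within 500 bp. At each of these 3 summits 1 H3K4me3 list had a region within 250 bp. Elsewhere in the desert beyond Mtx2 the wound-healing summit at 75481249 had H3K27ac within 500 bp in all 7 lists. Those at 75230486 and 75244689 had it in 3 lists each, and that at 75231034 in 1. The 300 bases of the shared place are shown with TAATTA in capitals (mm9, plus strand).
shared PRRX1 site, chr2:75443877-75444176: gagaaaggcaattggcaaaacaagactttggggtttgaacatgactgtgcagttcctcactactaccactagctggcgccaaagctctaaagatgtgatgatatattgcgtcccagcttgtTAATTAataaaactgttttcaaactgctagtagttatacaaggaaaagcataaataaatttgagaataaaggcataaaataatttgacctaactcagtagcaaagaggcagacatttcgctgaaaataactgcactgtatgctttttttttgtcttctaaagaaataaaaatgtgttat

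The summits fell at bases 72, 95 and 228 of this sequence, in the order MEF, MMTV-CAF and wound-healing, and TAATTA began at base 122. TAATTA lay within 100 bp of the MEF and MMTV-CAF summits. It ended just outside that distance from the wound-healing summit, so this difference rests on the window chosen. Over whole lists it lay within 100 bp of 69.1%, 35.5% and 41.9% of the PRRX1 summits in MEF, MMTV-CAF and wound-healing fibroblasts, beside 7.25% of all windows of this length. TAATTA reads the same on both strands. The palindrome of TAAT and ATTA with any 3 bases between them was in none of the windows around these 13 summits. The cluster itself held 16 copies of TAATTA, and 3.12% of its windows had one.

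**Figure D5:**
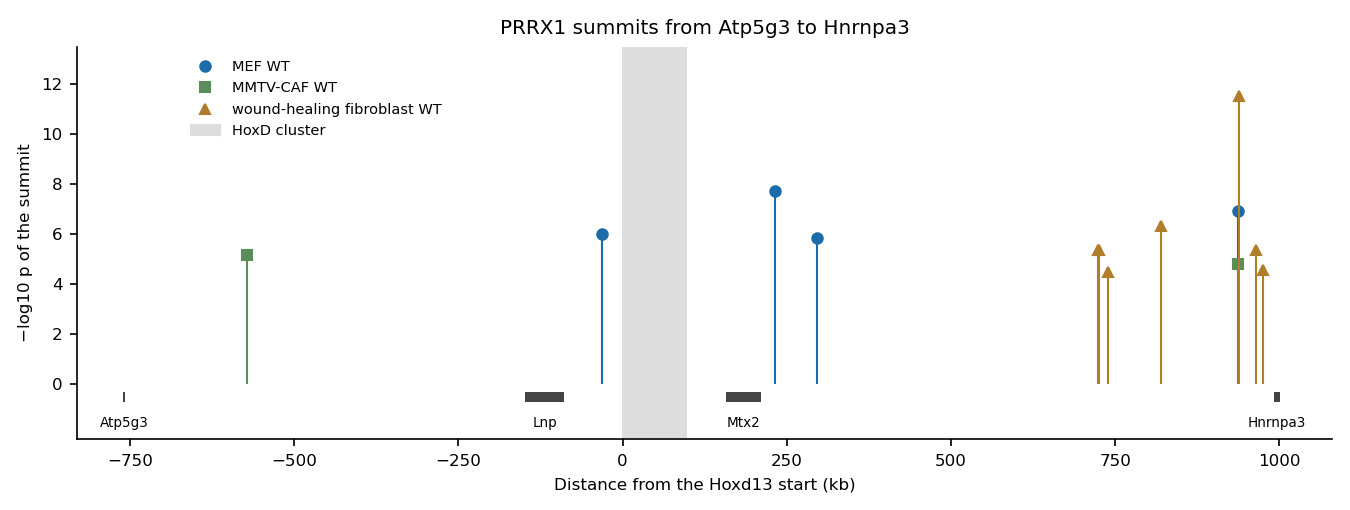
PRRX1 summits of the 3 WT lists from Atp5g3 to Hnrnpa3, by distance from the Hoxd13 start (kb) and −log10 p of the summit, with the HoxD cluster shaded and neighbouring genes as black bars. The shaded cluster holds no summit, and the summits of all 3 types meet 938 kb after the Hoxd13 start.

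The contrast between MEF KI and the rest was set beside the other Hox clusters. In HoxD the Jaccard index of H3K4me3 bases, shared over joint bases, was 0.140 to 0.237 for the 6 pairs with MEF KI and 0.349 to 0.804 for the other 15. Over all chromosomes it was 0.382 to 0.688 and 0.483 to 0.820. In HoxA it was 0.275 to 0.410 with MEF KI and 0.523 to 0.841 without, in HoxB 0.0712 to 0.145 and 0.480 to 0.787, and in HoxC, where MEF KI had no region, 0 and 0.405 to 0.887. The pairs with MEF KI thus lay below all the others in each of the 4 clusters. Of the 22 genes of paralogue groups 1 to 9 in these 3 clusters, H3K27ac near a start was found for 7 in MEF KI and 15 to 17 in the other cultures. Of the 8 genes of groups 10 to 13 it was found for 3 in MEF KI and 1 to 6 in the others. All 3 were HoxA genes: HoxA had it at 3 of its 3 genes of these groups in MEF KI and at 1 or 2 of 3 in the other cultures, and HoxB and HoxC had it at 0 in MEF KI. H3K4me3 lay over a start of 2 of the 8 genes in MEF KI and 3 to 7 in the others, and in HoxA alone over 2 of 3 and 1 to 3 of 3.

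The mean of the 9 members, as the share of bases within 2 kb of the first start covered by H3K4me3, came to 44.6% for MEF KI, beside 23.8% for MEF WT and 19.8% for MEF SG. It was 17.9% in MMTV-CAF before and 17.2% after deletion, and 31.2% against 30.5% in wound-healing fibroblasts. The 5 protein-coding genes with the nearest profile over the 7 lists were Enpp4, Bub1b, Sgk3, Mme and Ap1s3, at root mean square differences of 7.17 to 8.62 percentage points.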

How the data were processed

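Per the labels and the study's methods, the authors trimmed reads (Trimmomatic), aligned them to mm9 (Bowtie), removed duplicates and called peaks against input (MACS2, with broad calling for H3K4me3). Whether the PRRX1 duplicates were pooled is not given in the sources used here. The deposited H3K27ac and PRRX1 lists hold 1-base summits with −log10 p, and the PRRX1 lists reach below the stated MACS2 cutoff. The deposited H3K4me3 lists hold regions with a score, a fold ratio and −log10 p and q. The score was not used.

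Members and lists were chosen with earlier results of these data known. Named genes were the members, their neighbours, non-coding genes inside the cluster and the 5 genes nearest in H3K4me3 profile. A member counted as marked with an H3K4me3 region over, or an H3K27ac or PRRX1 summit within 1 kb of, any coding start. Lists were read with Python 3.11.15 and pandas 2.3.3 and sequences with pysam 0.24.0. Interval functions were tested on simulated data. Library depth is unknown, so no interval is given. The alternatives were other cutoffs, list sizes, distances and cluster limits. Replicates, reads and inputs were not analysed here.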

Additional observations from a re-analysis of the deposited data

Results flagged for a closer look

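The change from WT to SG went in opposite directions in different fibroblast types for 5 measures of the cluster, in 9 pairs of types. None of these differences was tested, since each type had 1 list per genotype. H3K4me3-covered bases over the cluster had a log2 ratio of SG to WT of −0.35 in MEF. The ratio was 0.06 for MMTV-CAF, a difference of 0.41 (without regions under a −log10 p of 10 it was −0.38, beside −0.50 in MEF, so the directions were no longer opposite), and 0.04 for wound-healing fibroblasts, a difference of 0.39. In the part from Hoxd13 to Hoxd10 the ratio was 0.79 in MEF and 3.12 in MMTV-CAF, and −0.41 for wound-healing fibroblasts, differences of 1.20 and 3.53. Every region behind these posterior ratios had a −log10 p of 8.16 or less, so none is left at a cutoff of 10, and the 3.12 rests on 0.260 kb in WT. In the part from Hoxd9 to Hoxd1 it was −0.50 in MEF and −0.36 in MMTV-CAF, and 0.16 for wound-healing fibroblasts, differences of 0.67 and 0.52. H3K27ac summits over the cluster had a ratio of −0.58 in MEF. It was 0.32 for MMTV-CAF, a difference of 0.91 (without summits under a −log10 p of 10 it was 0), and 0.68 for wound-healing fibroblasts, a difference of 1.26. From Hoxd9 to Hoxd1 the ratio of summits was −0.85 in MEF and 0.49 in wound-healing fibroblasts, a difference of 1.33. The summit ratios rest on 4 to 9 summits per list.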

How the results depend on the processing

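No analysis paired by replicate was possible because each group held 1 list, so that replicate numbers pair nothing within a type. No replicate was left out, for the same reason. Paired by fibroblast type, a comparison added after seeing the data, the mean log2 change from WT to SG over 3 pairs was −0.08 ± 0.23 (SD) for H3K4me3-covered bases (exact sign-flip permutation test, two-sided, p = 1) and 0.14 ± 0.65 for H3K27ac summits (exact p = 0.75). Both measures were higher in SG in 2 of 3 pairs. Since 3 pairs cannot give a p below 0.25, the test cannot decide whether either measure changed. The 3 types differ in origin and are no replicates of each other. Of 182 alternative values, 155 lay within 1.5 times the value reported (for a log2 ratio, within the log2 of that factor, and for an edge, within 5 kb), 25 moved further and 2 reversed. Among the 155, the log2 ratio of H3K27ac summits in MMTV-CAF SG went from 0.32 to 0 without summits under a −log10 p of 10, so its direction was lost. The count of PRRX1 summits in the cluster was 0 under every alternative run.

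With entries under a −log10 p of 10 left out, the log2 ratio of H3K4me3-covered bases turned to −0.87 for MEF KI and to −0.38 for MMTV-CAF SG. Covered bases of MEF KI came to 5.74 kb, and members with H3K4me3 at a start to 1 in MEF KI and 3 in wound-healing SG. The first H3K4me3 base moved to 29.187 kb after Hoxd13 in MEF WT, 29.179 in MEF SG, 28.817 in MMTV-CAF WT, 29.181 for wound-healing WT, 28.92 in wound-healing SG and −0.074 in MEF KI. The last moved to 5.739 kb in MEF KI, 48.052 in MMTV-CAF WT and 48.144 for wound-healing SG. The first H3K27ac summit moved to 29.93 kb in MEF SG and 29.901 in MMTV-CAF SG, and the last to 47.328 in wound-healing SG. The edges were looked at under this cutoff after seeing the data.

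With all lists cut to the size of the shortest, MMTV-CAF SG had 3.27 kb of H3K4me3, 0 H3K27ac summits and 0 members with a summit, and MEF WT had 5 summits. With only the 2 lists of a pair made equal, the log2 ratio of summits in MEF KI was 1.38. In this pair the cut shortens the WT list alone, so the ratio could not fall. With summits joined over 5 kb, a shorter distance, the rank of HoxD among all joined clusters came to the top 0.262% for MEF KI and 10.9% for MEF SG, 55.6% for MMTV-CAF WT, and 22.9% and 14.1% for wound-healing WT and SG. The cutoffs and list sizes change which summits remain, and no further cause was tested.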

Other observations

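The non-coding genes inside the cluster were read at their annotated starts. The outer start of the antisense gene 1700109F18Rik, at 74554187, had H3K4me3 in 6 lists and not in MEF KI, and an H3K27ac summit within 1 kb in both MEF WT and MEF SG and both wound-healing cultures. Gm20440, which starts inside Hoxd11, had both marks in MEF KI and in no other list. Gm14424, Gm14426 and Mir10b, and the protein-coding Gm14396, had neither mark at a start in any list. A short H3K4me3 region in 6720416L17Rik, 81.0 to 82.1 kb after the Hoxd13 start, occurred in MMTV-CAF WT, wound-healing WT and wound-healing SG, at −log10 p of 4.77, 4.58 and 6.48. No member start lies within it.

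Of the 50 H3K27ac summits inside the cluster over the 7 lists, 19 fell in coding exons, 9 in untranslated exons, 12 in introns and 10 outside coding transcripts of the members. In MEF KI 6 of 13 fell outside.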
